A study of Danio rerio with 10 samples.

Results

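Brains of zebrafish homozygous for a *ppp2r2c* mutation were compared with wild type (WT) brains across every drug condition of the experiment, to find the genotype differences that held without drug and with either of 2 drugs. All 8 *ppp2r2c* m/m libraries were set against both WT libraries, which make up the 10 libraries of the series. A gene was said to show no overlap when its 8 *ppp2r2c* m/m values all lay above, or all below, both WT values, which was so for 2066 of the 20902 genes that passed a filter on low counts. The fish, of the Tubingen strain, were 6 months old, and each library held the RNA of 2 pooled brains. The mutant fish were *ppp2r2c* m/m without drug (2 libraries), *ppp2r2c* m/m fed methylphenidate (MPH, sold as Ritalin) at 1.08 mg/kg for 3 days (3 libraries) and *ppp2r2c* m/m fed valproate (Val) at 300 mg/kg for 3 days (3 libraries). They were set against WT without drug (2 libraries). The sample labels give no treatment for either group without drug, and no WT fish received a drug. The labels name 1 mutant line, a4, and the methods describe frameshifts made with CRISPR-Cas9 in exon 9, so the differences belong to that line and cannot be told apart from other differences between the WT stock and the mutant stock. Libraries are called replicates as the labels number them. No label says that they came from separate tanks or clutches, so p-values measure the spread between these libraries only.

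Protein phosphatase 2A (PP2A) removes phosphate from serine and threonine residues of many proteins. It works as a trimer of a scaffold subunit, a catalytic subunit and an exchangeable regulatory B subunit that selects substrates. *ppp2r2c* encodes one such B subunit, of the B55 family, known for its expression in brain.

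The guide that directed the mutation and the forward primer of one of the study's PCR pairs share part of their sequence, and both are shown because counts per gene do not read the edited bases. The capitals mark the 14 bases that the 20-base guide shares with the 19-base forward primer of the pair called p2.
*ppp2r2c* guide: GGGCCCAGTGGAGAcatacc
*ppp2r2c* p2 forward primer: gaaaaGGGCCCAGTGGAGA
The level of *ppp2r2c* (ENSDARG00000056797) was 39.2 CPM at the lowest, 52.6 CPM at the median and 70.5 CPM at the highest in *ppp2r2c* m/m libraries, against 50.3 and 54.6 CPM in WT. CPM are counts scaled to library size with edgeR's TMM factors, and they do not account for gene length. The genotypes overlapped, and the log2 change was 0.03 with a standard error of 0.19 (edgeR, quasi-likelihood test, adjusted p = 0.971). Set against WT, the log2 change was −0.18 without drug, 0.01 with MPH and 0.24 with Val. The related *ppp2r2cb* (ENSDARG00000062277) had 17.7, 21.6 and 30.6 CPM as lowest, median and highest value in *ppp2r2c* m/m libraries, against 26.4 and 28.5 CPM in WT, and a log2 change of −0.31 with a standard error of 0.19 (edgeR, adjusted p = 0.569). For *ppp2r2cb* the log2 change was −0.61 without drug, −0.26 with MPH and −0.06 with Val. Without drug its edgeR p was 0.0296 before adjustment and 0.789 after. In the libraries without drug, *ppp2r2c* had 46.3 and 46.7 CPM, which was below both WT values. So were MPH replicates 1 and 3 with 49.1 and 39.2 CPM, and the other 4 drug libraries lay above both. A premature stop codon can lower a transcript through nonsense-mediated decay. The paper reports less mutant mRNA by RT-qPCR and lower PP2A activity in mutant brains. Over all 8 libraries here no lower level was detected, and counts that do not read the edited bases cannot decide the genotype. The genotype therefore rests on the labels, and *ppp2r2c* m/m stands for the libraries labelled so.

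The libraries held 19224942 to 25851076 counts on genes (median 21647733.5). Between a *ppp2r2c* m/m library without drug and a WT library, genes differed by a median of 0.26 to 0.304 in log2, against 0.273 between the WT libraries. For MPH and WT libraries this median was 0.361 to 0.487, against 0.347 to 0.451 between MPH libraries, and for Val and WT libraries 0.316 to 0.419, against 0.207 to 0.334 between Val libraries. Markers of neurons, which define the labelled tissue, summed to between 9030 and 10600 CPM in *ppp2r2c* m/m libraries, against 9310 and 9760 CPM in WT. In whole brains, fewer cells of a type and less RNA per cell cannot be told apart.

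Of the 20902 genes tested, 63 (0.301%) had an adjusted p under 0.05 between the 8 *ppp2r2c* m/m libraries and WT in edgeR's quasi-likelihood test. The fit had 1 term for each of the 4 groups, and the log2 change was the mean of the 3 *ppp2r2c* m/m groups minus WT, so that each group had the same weight. Of these genes, 25 (0.12%) were higher and 38 (0.182%) lower in *ppp2r2c* m/m. Before adjustment, p was under 0.05 for 2417 of the 20902 genes and under 0.01 for 777. Counts of an unadjusted p under 0.05 in the lists below compare with this share, which covers both directions. By the rule of no overlap, 922 genes (4.41%) lay above and 1144 (5.47%) below WT in all 8 *ppp2r2c* m/m libraries. With library totals alone in place of TMM scaling, the genes without overlap were split into 491 above and 1517 below. Most of these gaps were narrow. The distance between the nearest *ppp2r2c* m/m and WT values had a median of 0.115 on the log2 scale, and it was under 0.1 for 943 genes. A gap of at least 1 was found for 106 genes, 52 above and 54 below, of which 42 passed the adjusted threshold and 64 did not.

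Of the 63 genes, 60 showed no overlap, 24 above and 36 below WT. Nearest to that limit on the inside were *nr1d1*, *dnaja1* and *vim*, with gaps of 0.023, 0.046 and 0.077. The 3 on the outside were *nr1d2a*, *dnaja* and *tnfrsf14*. A mean level of at least 10 CPM over all libraries was reached by 26 of the 63, 13 higher and 13 lower. The remaining 37 had lower levels. In one genotype many of these were close to absent: 14 of the lower genes had at most 10 counts in each *ppp2r2c* m/m library, and 10 of the higher genes had at most 10 counts in each WT library.

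**Figure D1:**
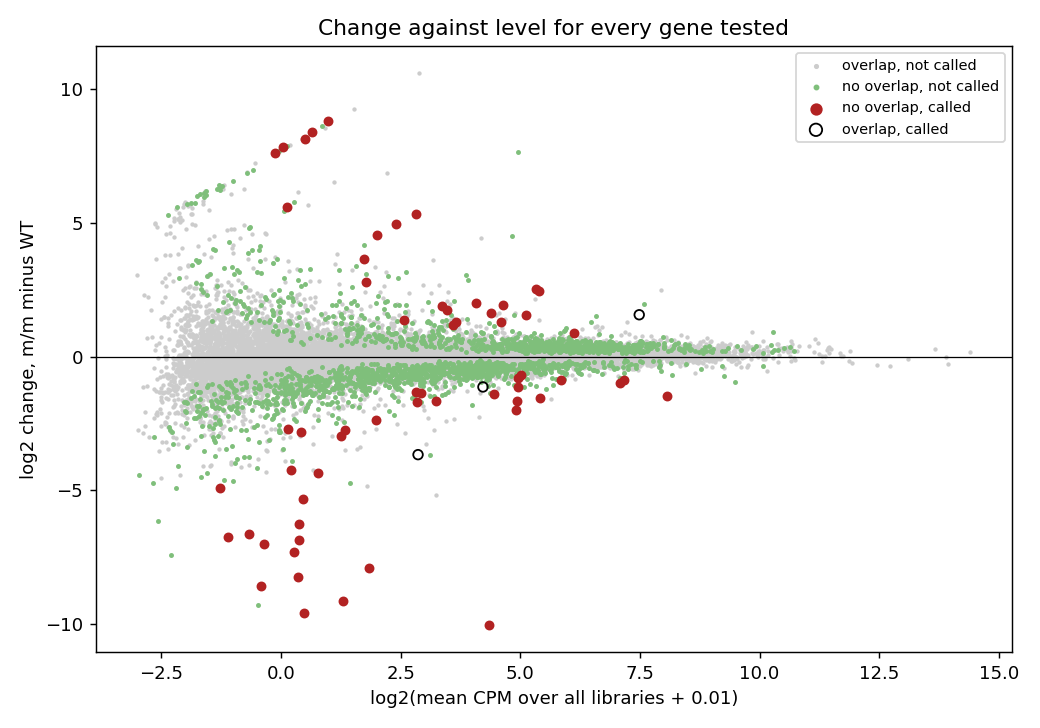
Log2 change (vertical axis, *ppp2r2c* m/m minus WT) against log2 of the mean CPM over all libraries plus 0.01 (horizontal axis) for the 20902 genes tested. Green points are genes without overlap that did not pass the adjusted threshold, red points the 60 genes that did so without overlap, and open circles the 3 that did so with overlap.

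The lowest adjusted p belonged to si:ch73-364h19.2 (ENSDARG00000100480, on chromosome 3), a gene known by its clone name alone. It had 2 and 3 counts in *ppp2r2c* m/m libraries without drug, 0, 0 and 1 with MPH and 8, 10 and 6 with Val, against 3098 and 1401 counts in WT. No *ppp2r2c* m/m library exceeded 10 counts, while the WT libraries were 2.28-fold apart. Scaled to library size, the counts were 591-fold lower in *ppp2r2c* m/m (95% counting interval 414 to 877), with an adjusted p of 1.37e-07 from edgeR's quasi-likelihood test. Counting intervals and floors cover counting error only, and fitted log2 changes of genes near 0 depend on small numbers of counts.

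A pair of genes for class II major histocompatibility molecules, which present peptides to T cells, was also all but absent from *ppp2r2c* m/m brains. *mhc2dgb* (ENSDARG00000104635) had 1 count in 1 Val library and 0 in the other 7 *ppp2r2c* m/m libraries, against 237 and 66 counts in WT. *mhc2dga* (ENSDARG00000103716) had 1 count in a library without drug, 3 in a Val library and 0 in the other 6 *ppp2r2c* m/m libraries, against 226 and 50 counts in WT. Both lay apart from WT in every library, and both WT libraries differed from each other by several fold. The scaled ratio of WT to *ppp2r2c* m/m was 1190 (95% counting interval 213 to 47300) for *mhc2dgb* and 272 (105 to 1010) for *mhc2dga*, with adjusted p of 0.00515 and 0.00908 from edgeR's quasi-likelihood test. They are next to each other on chromosome 8 in the RefSeq annotation of GRCz12tu, an assembly other than the one the reads were aligned to.

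In edgeR, an unadjusted p under 0.05 was found for 5 of 24 other tested MHC and antigen presentation genes, against 2417 of all 20902 genes. Of these 5, 3 were higher and 2 lower in *ppp2r2c* m/m. The list of 24 held none that passed in edgeR or in limma-voom, and 3 that did in DESeq2. It included 3 genes above WT without overlap (12.5%, against 4.41% of all genes) and none below. *mhc2dab* (ENSDARG00000079105), another class II gene, had between 0.794 and 84.3 CPM in *ppp2r2c* m/m libraries, against 0.0455 and 0.309 CPM in WT (log2 change 7.65, standard error 1.64, adjusted p = 0.102 in edgeR). *mhc1lda* (ENSDARG00000023203), of class I, had between 0.221 and 2.76 CPM in *ppp2r2c* m/m libraries and 0 counts in both WT libraries, with an adjusted p of 0.127. DESeq2 gave an adjusted p of 1.1e-06 for *mhc2dab* and 0.002 for *mhc1lda*, and limma-voom gave 0.51 for *mhc2dab* and 0.238 for *mhc1lda*. The other gene that passed in DESeq2, *mhc1zea* (ENSDARG00000001470), was lower, with a log2 change of −1.29 there (adjusted p = 0.0326 in DESeq2 and 0.188 in limma-voom). The list's median log2 change was 0.06, against −0.00711 over all genes tested. MHC genes occur as near-identical copies between which reads could be split, so each of these values is uncertain.

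Several genes named for 1 sequenced clone, si:ch73-233f7, moved in both directions. si:ch73-233f7.3 had at most 3 counts in any *ppp2r2c* m/m library, against 132 and 128 in WT (adjusted p = 0.00116 in edgeR). For si:ch73-233f7.6 the highest *ppp2r2c* m/m count was 6, against 77 and 86 in WT, and for si:ch73-233f7.4 it was 5, against 139 and 133 in WT. si:ch73-233f7.8 kept up to 17 counts in *ppp2r2c* m/m, against 172 and 145 in WT. Their adjusted p values were 0.00856, 0.0165 and 0.0149. The opposite was seen for si:ch73-233f7.5, with 15.9, 32.2 and 35.7 CPM as lowest, median and highest *ppp2r2c* m/m value, against 5.46 and 9.79 CPM in WT (log2 change 1.93, standard error 0.28, edgeR adjusted p = 0.0165). Their shared name marks a common clone, and whether they are copies between which reads were split was not tested.

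The other genes that fell to near absence included *slc16a6a* and *myf6*. *slc16a6a* (ENSDARG00000102793), of a family of carriers for monocarboxylates and known in zebrafish for exporting ketone bodies from the liver, had at most 3 counts in any *ppp2r2c* m/m library, against 521 and 12 in WT. The WT libraries were 44.8-fold apart, and the log2 change of −9.14 (adjusted p = 0.00908 in edgeR) became −4.64 without WT replicate 1. *myf6* (ENSDARG00000029830), a transcription factor of muscle differentiation, had at most 4 counts in *ppp2r2c* m/m libraries, against 44 and 34 in WT (adjusted p = 0.0476). Of 13 tested skeletal muscle markers none passed the adjusted threshold in edgeR, DESeq2 or limma-voom, and none had an unadjusted p under 0.05 in edgeR. Their sum was 16.1 to 46.2 CPM in *ppp2r2c* m/m libraries, against 15.7 and 46.4 CPM in WT.

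Less is known of the rest of this group. ENSDARG00000102326, which has no symbol in the name tables used, had at most 5 counts in a *ppp2r2c* m/m library, against 527 and 244 in WT (adjusted p = 5.65e-05 in edgeR). si:dkey-22i16.9 had at most 3, against 124 and 155 in WT, and si:dkey-27p18.3 at most 1, against 106 and 56 in WT. CR589944.1 had between 1 and 6 counts in *ppp2r2c* m/m libraries, against 103 and 177 in WT. CT573264.3 had 0 counts in all 5 *ppp2r2c* m/m libraries without drug or with MPH, and 4, 5 and 3 with Val, against 28 and 61 in WT. si:ch211-91g3.4 had between 0 and 15, against 108 and 99 in WT. The adjusted p of these 5 clone-named genes lay between 0.00066 and 0.0489.

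The converse, expression in all 8 *ppp2r2c* m/m libraries with 0 counts in both WT libraries, was seen for 5 genes, none of them named for a function. CR339041.1 (ENSDARG00000051710) had 66 and 71 counts in *ppp2r2c* m/m without drug, 44, 46 and 53 with MPH and 50, 64 and 38 with Val, at least 18.3-fold higher than WT at a floor of 3 counts per library (adjusted p = 0.00286 in edgeR). The others were ENSDARG00000097573, at least 14.5-fold higher, si:ch211-209f22.2, at least 13.1-fold, si:ch211-147g22.4, at least 9.54-fold, and CABZ01069016.1, at least 8.44-fold. Their *ppp2r2c* m/m libraries had between 12 and 87 counts, so that none came near 0. The adjusted p of these 4 lay between 0.0165 and 0.0408.

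Genes with a few WT counts came next. *caspb* (ENSDARG00000052039), a caspase of inflammation and pyroptosis in zebrafish, had 3.54, 6.33 and 11.6 CPM as lowest, median and highest *ppp2r2c* m/m value, against 0 and 9 counts in WT. The scaled counts were 32.5-fold higher in *ppp2r2c* m/m (95% counting interval 17 to 71.2, adjusted p = 0.048 in edgeR). The log2 change of 4.97 was 4.01 without WT replicate 1 and 10.15 without WT replicate 2. The value of 10.15 is fitted against 0 counts and is no bound. *caspb* passed in 8 of 17 alternatives, limma-voom not among them. *ifitm1* (ENSDARG00000093303), an interferon-induced membrane protein that hinders the entry of viruses, had between 2.14 and 5.6 CPM in *ppp2r2c* m/m libraries, against 0.774 and 0.397 CPM in WT (log2 change 2.78, standard error 0.49, adjusted p = 0.0476). It passed in 7 of 17 alternatives, and its limma-voom adjusted p was 0.0942. Of 22 tested interferon response genes *ifitm1* was the only one that passed in edgeR. The list held 1 gene above WT and 1 below without overlap (4.55% each, against 4.41% above and 5.47% below of all genes), with median log2 changes of −0.13 without drug, 0.00 with MPH and 1.69 with Val.

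*meiob* (ENSDARG00000062442), which binds single-stranded DNA in meiotic recombination, had 23 and 53 counts in *ppp2r2c* m/m without drug, 77, 112 and 165 with MPH and 94, 84 and 107 with Val, against 4 and 8 in WT (adjusted p = 0.0192 in edgeR). ENSDARG00000074085 had between 123 and 283 counts in *ppp2r2c* m/m libraries, against 9 and 0 in WT. ENSDARG00000102500 had between 51 and 185, against 2 and 7, and FO904898.3 between 18 and 38, against 0 and 1 in WT. The adjusted p of these last 3 lay between 0.00856 and 0.0298.

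**Figure D2:**
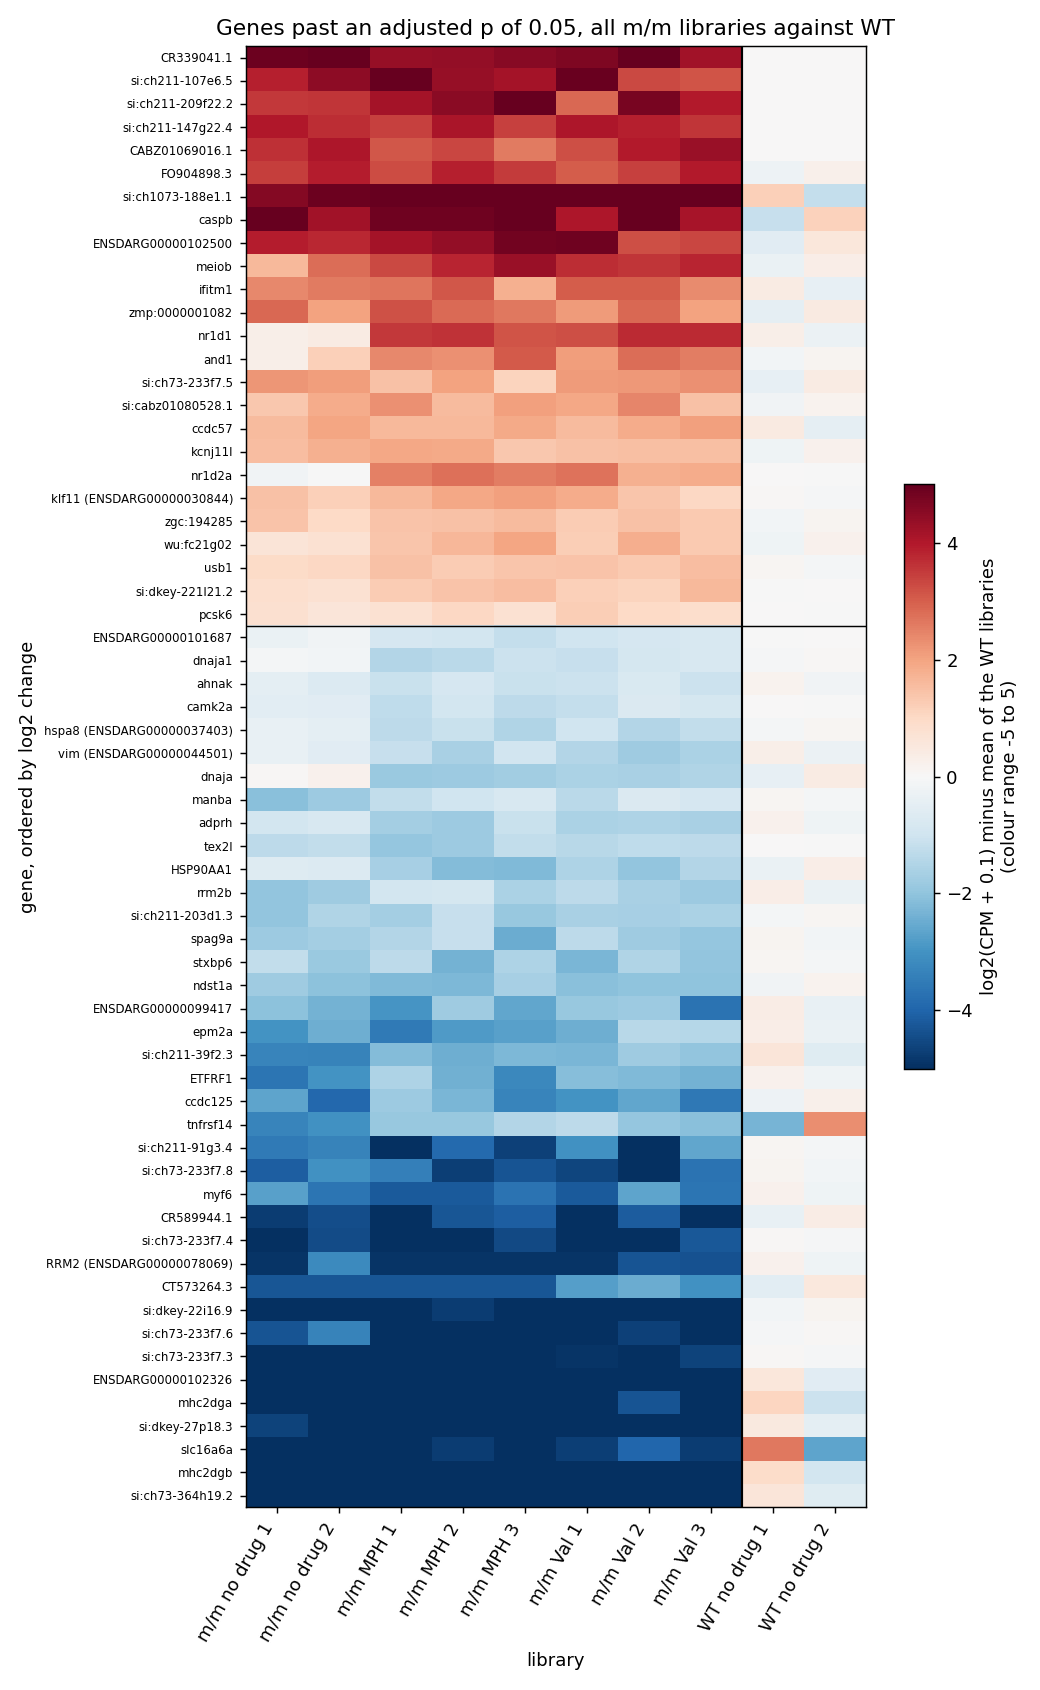
The 63 genes with an adjusted p under 0.05 (rows, ordered by log2 change) in the 8 *ppp2r2c* m/m libraries (left of the vertical line) and both WT libraries (right). Colour is log2 of CPM plus 0.1 minus the mean of the WT libraries, cut at −5 and 5. *tnfrsf14* and *slc16a6a* show the widest split between the WT libraries, and *nr1d1*, *nr1d2a* and *dnaja* stay near WT without drug.

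Among the lower genes that had more than 10 counts in every library, the lowest adjusted p belonged to *ndst1a* (ENSDARG00000062397, chromosome 14), which encodes an enzyme that sulfates heparan sulfate chains. It had 15.5, 18.2 and 23.3 CPM as lowest, median and highest *ppp2r2c* m/m value, against 65.4 and 85.3 CPM in WT. All 8 *ppp2r2c* m/m libraries lay well below both WT libraries. The log2 change was −2.01 (standard error 0.16, adjusted p = 0.000419 in edgeR), with −1.92 without drug, −2.04 with MPH and −2.05 with Val.

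Ribonucleotide reductase, which makes deoxyribonucleotides for DNA synthesis and repair, was represented by several genes for its small subunit, of which *rrm2b* and one *RRM2* gene fell. *rrm2b* (ENSDARG00000033367), the small subunit induced by p53 in mammals, had 21.5, 27.7 and 45.5 CPM in *ppp2r2c* m/m libraries as lowest, median and highest value, against 107 and 66.8 CPM in WT. The log2 change was −1.55 (standard error 0.20, adjusted p = 0.00908 in edgeR), and it was −1.91 without drug, −1.14 with MPH and −1.61 with Val. A gene with the symbol *RRM2* (ENSDARG00000078069) had 0 counts in 5 *ppp2r2c* m/m libraries and 5, 1 and 1 in the other 3, against 74 and 57 in WT (edgeR adjusted p = 0.0227). The other gene of that symbol (ENSDARG00000020711) had between 2.08 and 10.6 CPM in *ppp2r2c* m/m libraries, against 1.91 and 1.76 CPM in WT, with an adjusted p of 0.197 in edgeR and 0.0185 in DESeq2. Whether reads were split between these copies was not tested.

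Both *RRM2* genes belong to a list of 49 tested DNA replication genes. No member of the list passed upwards in edgeR, 2 did in DESeq2 and none in limma-voom, and 11 had an unadjusted p under 0.05 upwards in edgeR. Over all 20902 genes, 2417 had such a p in either direction. Without overlap, 8 members (16.3%) lay above WT, against 4.41% of all genes, and 1 (2.04%) below. The 8 were *chtf18*, *dnmt1*, *gins4*, *orc4*, *pole2*, *rfc4*, *rfc5* and *RRM2* (ENSDARG00000020711). The maintenance DNA methyltransferase *dnmt1* (ENSDARG00000030756) ranged only from 64 to 73.1 CPM in *ppp2r2c* m/m libraries, against 54.3 and 48.8 CPM in WT (log2 change 0.43, adjusted p = 0.164 in edgeR and 0.0193 in DESeq2). *gins4* (ENSDARG00000016044), of the GINS complex of the replicative helicase, had between 1.45 and 3.8 CPM in *ppp2r2c* m/m libraries, against 0.637 and 1.06 CPM in WT (adjusted p = 0.231). The median log2 change of the list was 0.61 without drug, 0.34 with MPH and 0.07 with Val. Of 39 tested mitosis genes, 4 (10.3%) lay above WT without overlap and none below, namely *ccna2*, *cenpf*, *kif15* and *ncapd2*. None passed in edgeR or limma-voom and 1 did in DESeq2, while 6 had an unadjusted p under 0.05 in edgeR, all upwards. The list's medians were 1.07 without drug, 0.12 with MPH and −0.09 with Val. These lists were chosen with earlier results on the same libraries known, so their counts are no independent evidence.

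**Figure D3:**
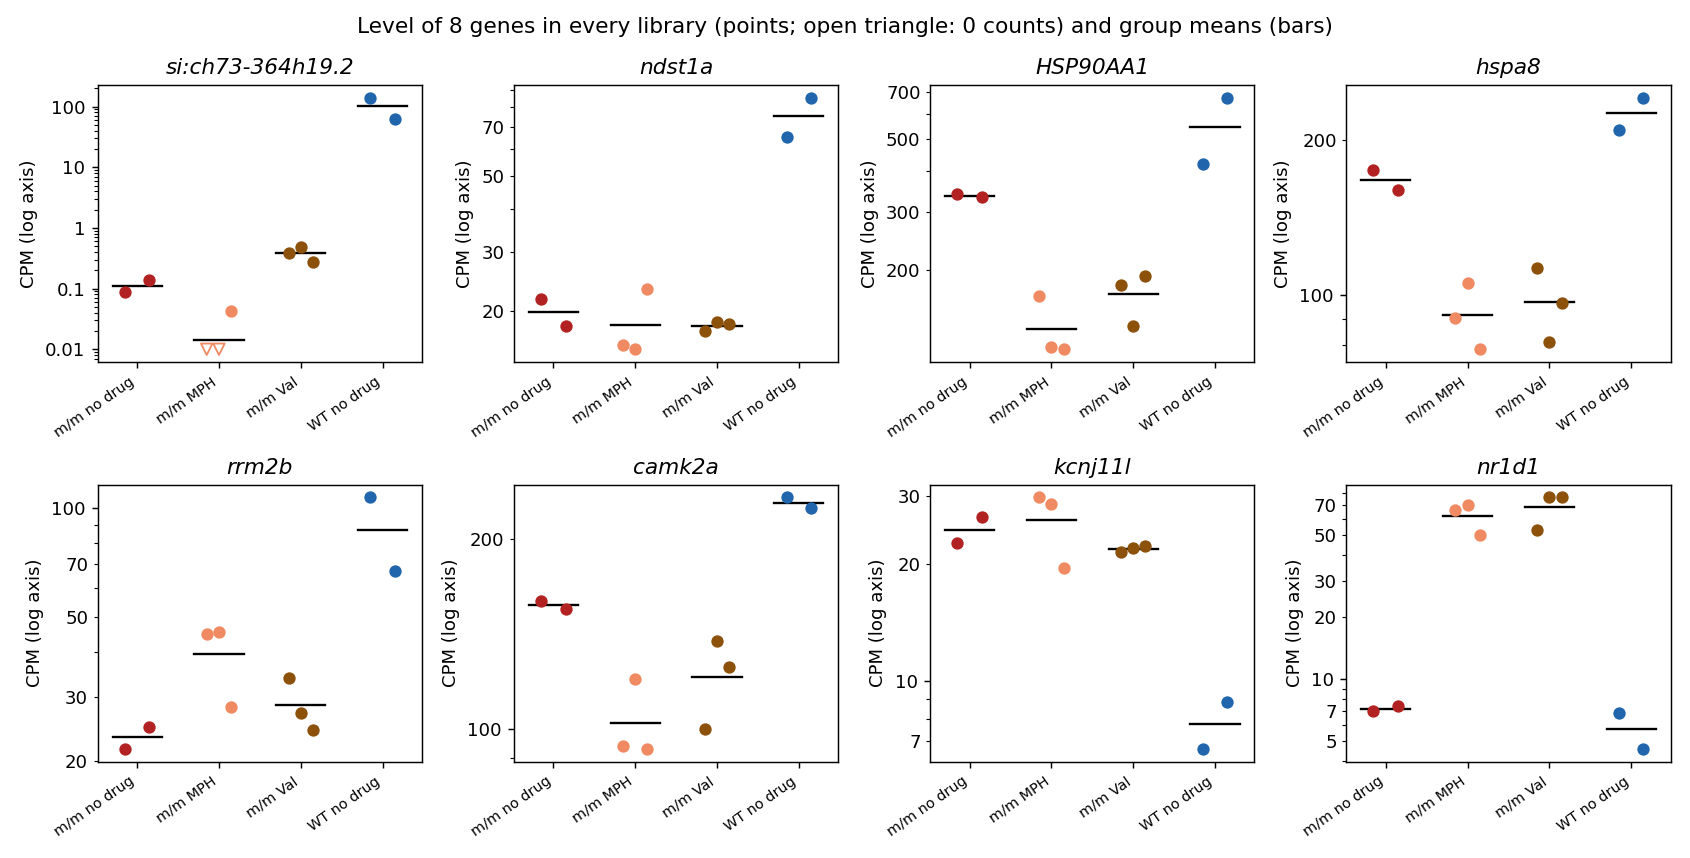
CPM (vertical log axes) of 8 genes in every library, with *ppp2r2c* m/m without drug, with MPH and with Val to the left of WT. Points are libraries, open triangles libraries at 0 counts drawn at 0.01 CPM, and bars group means. *ndst1a* sits between 15.5 and 23.3 CPM in all 8 *ppp2r2c* m/m libraries, while *nr1d1* is near WT without drug and at 50 CPM or more with either drug.

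Of the 38 genes that fell, 4 encode chaperones or co-chaperones, which fold proteins and hold partly folded ones. None of the 4 passed in a fit of 2 groups, in which the 8 *ppp2r2c* m/m libraries form 1 group. Their log2 changes in that fit were −1.47 for *HSP90AA1*, −1.01 for *hspa8*, −1.03 for *dnaja* and −0.79 for *dnaja1*. The loss was not limited to chaperones. Of all genes called in the main test, 22 did not pass in that fit, *camk2a*, *vim* and *ahnak* among them. *HSP90AA1* (ENSDARG00000024746), a cytosolic HSP90, had 115, 173 and 340 CPM as lowest, median and highest *ppp2r2c* m/m value, against 420 and 671 CPM in WT (log2 change −1.48, standard error 0.19, adjusted p = 0.00908 in edgeR). Both *ppp2r2c* m/m libraries without drug were above all 6 drug libraries and still below WT. The log2 change was −0.70 without drug, −2.04 with MPH and −1.69 with Val. A gene with the symbol *hspa8* (ENSDARG00000037403), of the HSP70 family, had 78.5, 101 and 175 CPM, against 210 and 242 CPM in WT, a log2 change of −0.99 (standard error 0.14, edgeR adjusted p = 0.0171), with −0.43 without drug, −1.31 with MPH and −1.22 with Val. For *HSP90AA1* and this *hspa8* gene the edgeR test of any difference among the 3 *ppp2r2c* m/m groups gave adjusted p of 0.0716 and 0.0862. The other gene with the symbol *hspa8* (ENSDARG00000068992) was far more abundant, with means of 1677 CPM in *ppp2r2c* m/m and 1772 CPM in WT. Its values overlapped, with a log2 change of −0.06 (edgeR adjusted p = 0.954). Whether reads were split between the *hspa8* copies was not tested.

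The co-chaperones *dnaja* (ENSDARG00000051762) and *dnaja1* (ENSDARG00000030972) carry a J domain, which stimulates HSP70. *dnaja1* had 16.9, 24 and 43.6 CPM as lowest, median and highest *ppp2r2c* m/m value, against 45 and 49.2 CPM in WT (log2 change −0.79, adjusted p = 0.0476 in edgeR). *dnaja* had 715 and 779 counts without drug, 188, 194 and 211 with MPH and 207, 198 and 232 with Val in *ppp2r2c* m/m, against 497 and 915 in WT (log2 change −1.14, adjusted p = 0.0287). Without drug both had values close to WT, with log2 changes of 0.09 for *dnaja* and −0.13 for *dnaja1*. The *ppp2r2c* m/m groups differed among themselves, with adjusted p of 0.00795 and 0.0391.

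Among 21 tested chaperones and their regulators, a list chosen after these values were seen, the 4 genes above passed in edgeR (19%, against 0.182% of all genes), 7 in DESeq2 and 5 in limma-voom, all downwards. Below WT without overlap were 6 of the 21 (28.6%, against 5.47% of all genes), and none was above. The 6 were *HSP90AA1*, *hspa8* (ENSDARG00000037403), *dnaja1*, *hsp90b1*, *hspb1* and *hsph1*. Because of how the list was chosen, these shares are no independent evidence. The median log2 change of the list was 0.01 without drug, −0.59 with MPH and −0.65 with Val. For *hsp90ab1*, another cytosolic HSP90, the log2 change was 0.51 (adjusted p = 0.391 in edgeR).

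*camk2a*, *vim* and *ahnak* also fell. *camk2a* (ENSDARG00000053617), a calcium-dependent kinase of synaptic plasticity, had 92.8, 123 and 159 CPM as lowest, median and highest *ppp2r2c* m/m value, against 233 and 224 CPM in WT (log2 change −0.87, standard error 0.14, adjusted p = 0.0284 in edgeR). Against WT the log2 change was −0.54 without drug, −1.16 with MPH and −0.92 with Val. *vim* (ENSDARG00000044501), an intermediate filament of radial glia and other cells, had 15.7, 21.7 and 42 CPM, against 65.3 and 44.4 CPM in WT (log2 change −1.12, adjusted p = 0.0287), and the nearest values of the genotypes were 42 and 44.4 CPM. For *vim* the log2 change was −0.49 without drug (unadjusted p = 0.0673 in edgeR), −1.26 with MPH and −1.63 with Val. *ahnak* (ENSDARG00000061764), a very large scaffold protein, had 42.1, 46.9 and 64.8 CPM, against 102 and 81.8 CPM in WT (log2 change −0.87, adjusted p = 0.0264).

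Of 19 tested radial glia and stem cell markers *vim* alone passed, in edgeR, DESeq2 and limma-voom alike, and the list's median log2 change was −0.06. Without overlap, 2 of the 19 (10.5%) lay below WT, against 5.47% of all genes, and none above. No marker of neurons passed in any of the 3 tools among 23 tested, 2 had an unadjusted p under 0.05 in edgeR, and the median was 0.06. Without overlap, 3 neuron markers (13%) lay above WT, *elavl4*, *RBFOX3* (ENSDARG00000010083) and *stmn2* (ENSDARG00000070537), against 4.41% of all genes, and 1 (4.35%) below, against 5.47%, with gaps of at most 0.0934. The marker sums for ependyma and choroid plexus were 609 to 828 CPM in *ppp2r2c* m/m libraries, against 858 and 938 CPM in WT. Most of each sum came from 1 of the 12 genes, *clu*, with 478 to 616 CPM, against 762 and 683 CPM in WT (edgeR adjusted p = 0.332). Only *clu* lay below WT without overlap (8.33% of the list, against 5.47% of all genes), and none lay above. Of the 12, 4 were higher and 8 lower in *ppp2r2c* m/m, with a median log2 change of −0.27. Photoreceptor, lens and pineal markers summed to 12.9 to 191 CPM in *ppp2r2c* m/m libraries, against 13.5 and 144 CPM in WT, so that neither genotype was uniform. Of the 16 tested, 14 had a lower level in *ppp2r2c* m/m. An unadjusted p under 0.05 in edgeR was found for 6, 5 of them lower, against 2417 of all 20902 genes. Their median log2 change was −2.14, with −3.61 without drug, −2.44 with MPH and −0.64 with Val. None passed the adjusted threshold in edgeR, DESeq2 or limma-voom. The part of these markers in the results was not tested.

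*spag9a*, *stxbp6* and *tex2l* fell as well. *spag9a* (ENSDARG00000074531), a scaffold of JNK signalling and motor transport, had 12, 19.9 and 30 CPM as lowest, median and highest *ppp2r2c* m/m value, against 73.2 and 61.2 CPM in WT (log2 change −1.68, adjusted p = 0.0205 in edgeR). *stxbp6* (ENSDARG00000088862), which binds SNARE proteins of vesicle fusion, had between 3.04 and 6.9 CPM, against 17.4 and 15.1 CPM in WT (log2 change −1.71, adjusted p = 0.0316). *tex2l* (ENSDARG00000078132) had between 11.4 and 18.6 CPM, against 44.5 and 43 CPM in WT (log2 change −1.41, standard error 0.16, adjusted p = 0.00562). In each of these the 8 *ppp2r2c* m/m libraries stayed clear of WT, with gaps of 1.03, 1.12 and 1.21 on the log2 scale.

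The lysosomal β-mannosidase gene *manba* (ENSDARG00000008238) had 66 and 77 counts in *ppp2r2c* m/m without drug, 122, 143 and 171 with MPH and 102, 155 and 154 with Val, against 299 and 269 in WT (log2 change −1.32, adjusted p = 0.0305 in edgeR). It was thus lowest without drug, with log2 changes of −1.99 without drug, −1.01 with MPH and −0.96 with Val, although the edgeR adjusted p of the difference among the groups was 0.221. *epm2a* (ENSDARG00000059044), the glycogen phosphatase laforin, had between 0.177 and 1.13 CPM, against 4 and 2.42 CPM in WT (log2 change −2.72, adjusted p = 0.0419). *adprh* (ENSDARG00000040712), which removes ADP-ribose from arginine, had between 4.1 and 8.37 CPM, against 17.1 and 12.6 CPM in WT (log2 change −1.35, adjusted p = 0.0287).

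*ccdc125*, *ETFRF1*, si:ch211-39f2.3, si:ch211-203d1.3, ENSDARG00000099417 and ENSDARG00000101687 complete the genes that fell without overlap. Their log2 changes were −2.96, −2.81, −2.76, −1.65, −2.37 and −0.70, with adjusted p between 0.00562 and 0.0489 in edgeR. For ENSDARG00000101687 the log2 change was −0.26 without drug (unadjusted p = 0.147 in edgeR), −0.98 with MPH and −0.87 with Val. *tnfrsf14* (ENSDARG00000068966), a receptor of the tumour necrosis factor family, passed the threshold with overlap. It had between 21 and 83 counts in *ppp2r2c* m/m libraries, against 42 and 1156 in WT, so that its log2 change of −3.67 (edgeR adjusted p = 0.0476) rested on 1 WT library and was 0.12 without WT replicate 2.

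Among the well-expressed genes that rose, *kcnj11l* (ENSDARG00000031438), named for its likeness to an inward-rectifier potassium channel gene, had 19.5, 22.4 and 29.7 CPM as lowest, median and highest *ppp2r2c* m/m value, against 6.69 and 8.86 CPM in WT. All 8 values lay more than 2-fold over the higher WT value, with a log2 change of 1.63 (standard error 0.21, adjusted p = 0.00908 in edgeR), and 1.66 without drug, 1.74 with MPH and 1.49 with Val. *klf11* (ENSDARG00000030844), a Krüppel-like transcription factor, had 27.4, 38.7 and 54.9 CPM, against 13.7 and 12.9 CPM in WT (log2 change 1.56, standard error 0.22, adjusted p = 0.015). *ccdc57* (ENSDARG00000089863), a protein of centrioles, had 11.1, 12.5 and 15.5 CPM, against 5.01 and 2.65 CPM in WT (log2 change 1.74, adjusted p = 0.0287).

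*pcsk6* and *usb1* rose by smaller amounts. *pcsk6* (ENSDARG00000104574), a proprotein convertase that cleaves secreted precursors, had 62.8, 73.7 and 95.3 CPM as lowest, median and highest *ppp2r2c* m/m value, against 41.5 and 40.2 CPM in WT, a log2 change of 0.87 (standard error 0.14, adjusted p = 0.0283 in edgeR). *usb1* (ENSDARG00000003841), an exonuclease that trims U6 RNA, had 11, 14.7 and 16.9 CPM, against 6.01 and 5.38 CPM in WT, a log2 change of 1.28 (standard error 0.18, adjusted p = 0.0149). ENSDARG00000098899 had between 31.2 and 70.8 CPM, against 5.55 and 10.7 CPM in WT, a log2 change of 2.53 (adjusted p = 0.0165). si:cabz01080528.1, si:dkey-221l21.2, wu:fc21g02 and zgc:194285 rose by 1.90, 1.19, 1.29 and 1.38 on the log2 scale, with adjusted p between 0.0396 and 0.048.

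**Figure D4:**
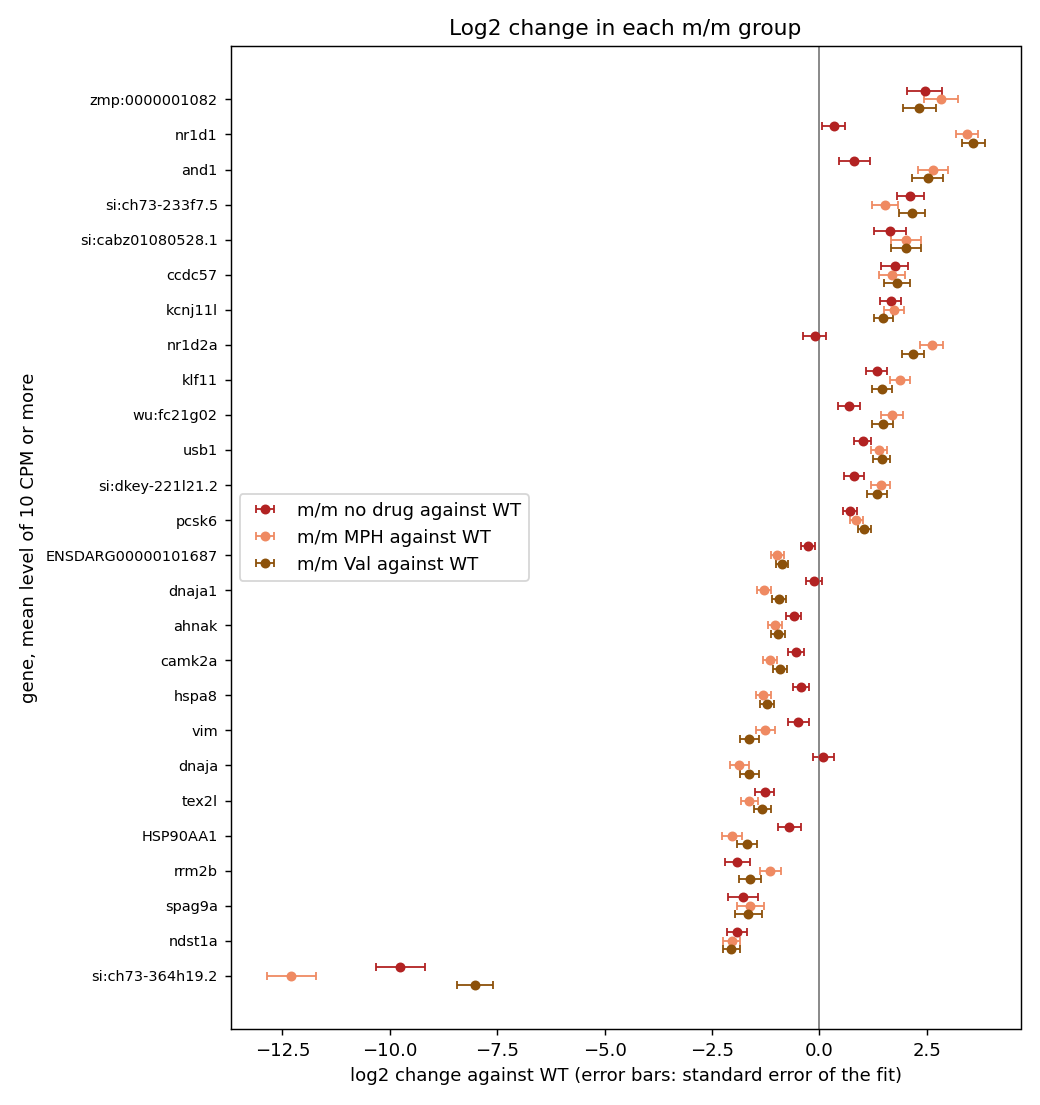
Log2 change against WT (horizontal axis, with standard errors of the fit) in *ppp2r2c* m/m without drug (red), with MPH (orange) and with Val (brown), for the 26 genes of the 63 with a mean of at least 10 CPM. The 3 groups share the WT libraries. *ndst1a*, *tex2l*, *spag9a*, *kcnj11l* and *ccdc57* have overlapping standard errors in all groups, whereas *nr1d1*, *nr1d2a* and *dnaja* are near 0 without drug.

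How far each difference held without drug and with either drug was read from the 3 groups side by side, which all share the WT libraries. The 63 genes were chosen by the mean of these same 3 changes. That choice favours a shared sign and a low p in each group, so the counts below are a description and no independent evidence. Of the 3 groups averaged, 2 had a drug, so it also favours genes with larger changes in the drug groups. In edgeR, 61 of the 63 genes had the same sign without drug, and all 63 did with MPH and with Val. An unadjusted p under 0.05 against WT was reached by 57 genes without drug, and by 63 with each drug. The 6 that did not reach it without drug were *nr1d1*, *nr1d2a*, *dnaja*, *dnaja1*, *vim* and ENSDARG00000101687. An adjusted p under 0.05 was reached by 4 genes without drug (2 libraries), by 52 with MPH and by 42 with Val (3 libraries each). Both drug groups changed by more than the group without drug in 35 genes and by less in 12. The test of a difference among the 3 *ppp2r2c* m/m groups itself, an F test with 2 degrees of freedom, passed for 41 genes (0.196%), and for 4 of the 63, namely *nr1d1*, *nr1d2a*, *dnaja* and *dnaja1*. A p that misses the threshold does not show that the groups were alike. In that test 21 of the 63 had an unadjusted p under 0.05, a larger share than among all genes tested. The count over all genes is given below, with the dependence on the processing.

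*nr1d1* and *nr1d2a* encode REV-ERB receptors, which repress transcription in the circadian clock. *nr1d1* (ENSDARG00000033160) had 159 and 163 counts in *ppp2r2c* m/m without drug, 1492, 1596 and 1172 with MPH and 1098, 1551 and 1658 with Val, against 151 and 104 in WT. The rule of no overlap was met by a gap of 0.023 only, and the log2 change of 2.45 (standard error 0.23, adjusted p = 0.00139 in edgeR) was made up of 0.33 without drug, 3.44 with MPH and 3.58 with Val. *nr1d2a* (ENSDARG00000003820) had 996 and 1075 counts in *ppp2r2c* m/m without drug, 6540, 7694 and 6813 with MPH and 6706, 3519 and 3936 with Val, against 1119 and 1113 in WT. Without drug its log2 change was −0.11, against 2.62 with MPH and 2.18 with Val. With no WT library given a drug, the share of these changes that needs the mutation cannot be told apart from a drug effect.

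Of 33 tested clock genes these were the only ones to pass in edgeR and in limma-voom, 5 passed in DESeq2, and 7 had an unadjusted p under 0.05 in edgeR, all higher. Over all 20902 genes, 2417 had such a p in either direction. Without overlap, 2 clock genes (6.06%) lay above WT, against 4.41% of all genes, and none below. The median log2 changes of the clock list were −0.08 without drug, 0.76 with MPH and 0.56 with Val. *and1* (ENSDARG00000088514), an actinodin known from fin folds, had 112 and 203 counts in *ppp2r2c* m/m without drug, 490, 454 and 793 with MPH and 357, 575 and 517 with Val, against 80 and 100 in WT (log2 change 1.99, adjusted p = 0.0305 in edgeR). Its adjusted p among the groups was 0.0862.

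The genes of PP2A itself gave no call. None of 31 tested subunits and regulators passed in edgeR, DESeq2 or limma-voom, and 1 had an unadjusted p under 0.05 in edgeR. Their median log2 change was 0.05, and their sum was 2970 to 3520 CPM in *ppp2r2c* m/m libraries, against 3020 and 3030 CPM in WT. Above WT without overlap were *ppme1*, the methylesterase of the catalytic subunit, and *ppp2r5cb*, a B56 subunit (2 genes, 6.45%). Below were *ptpa*, an activator of the phosphatase, and *strn*, a striatin (2 genes, 6.45%). Over all genes these shares were 4.41% above and 5.47% below. Their log2 changes were 0.38, 0.16, −0.33 and −0.41, each with an adjusted p of at least 0.307.

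Few members of the other lists passed in any tool. Of 35 antioxidant genes, 3 (8.57%) lay above and 2 (5.71%) below WT without overlap, against 4.41% and 5.47% of all genes. None passed in edgeR, where 3 had an unadjusted p under 0.05, or in limma-voom, and 1 did in DESeq2. Over all 20902 genes, 2417 had an unadjusted p under 0.05 in edgeR. The glutathione transferase *mgst3* had a log2 change of −1.67 with an adjusted p of 0.0819. Of 6 genes of L-tyrosine breakdown, *HPD* (ENSDARG00000044935), which oxidises 4-hydroxyphenylpyruvate, had between 0.177 and 0.966 CPM in *ppp2r2c* m/m libraries, against 3.55 and 2.56 CPM in WT (log2 change −2.74, adjusted p = 0.0892 in edgeR, 0.00577 in DESeq2 and 0.0258 in limma-voom). *fah*, the last enzyme of the pathway, had a log2 change of −2.84 with overlap (adjusted p = 0.138 in edgeR, 0.014 in DESeq2 and 0.154 in limma-voom). Of the 6 genes, 3 had an unadjusted p under 0.05 in edgeR, all lower. Of 24 dopamine genes none passed in edgeR, where 4 had an unadjusted p under 0.05, or in limma-voom, and 1 did in DESeq2. Without overlap, 2 of the 24 (8.33%) lay below WT, against 5.47% of all genes, and none above. The dopamine receptor *drd3* (ENSDARG00000032131) lay at 10.5 to 12.6 CPM in *ppp2r2c* m/m libraries, against 18 and 16.3 CPM in WT (log2 change −0.59, adjusted p = 0.161 in edgeR and 0.0246 in DESeq2).

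Of 22 microglia and macrophage markers, 2 (9.09%, against 4.41% of all genes) lay above WT without overlap, *hexb* and *p2ry12*. None of the 22 passed in edgeR, DESeq2 or limma-voom. An unadjusted p under 0.05 in edgeR was found for 6, 4 of them higher and 2 lower, against 2417 of all 20902 genes in either direction. Of the 22, 11 were higher and 11 lower in *ppp2r2c* m/m, with a median log2 change of 0, and none lay below WT without overlap. Of 15 tested markers of lymphocytes and other leukocytes, 10 were higher and 5 lower in *ppp2r2c* m/m, with a median log2 change of 0.21. Their sum was 75.2 to 148 CPM in *ppp2r2c* m/m libraries, against 69.6 and 72 CPM in WT. Without overlap, 1 (6.67%) lay below WT, against 5.47% of all genes, and none above. That gene was *ighm* (ENSDARG00000096355), the heavy chain of IgM. It had between 0.265 and 2.73 CPM in *ppp2r2c* m/m libraries, against 5.96 and 3.22 CPM in WT (log2 change −2.38, adjusted p = 0.0819 in edgeR, 0.00393 in DESeq2 and 0.0314 in limma-voom).

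Over all genes tested, 4.41% lay above WT without overlap and 5.47% below. The remaining lists held at most 1 such gene in each direction. Above and below WT, these numbered 1 and 0 of 29 checkpoint and secretory genes, 1 and 1 of 29 glucocorticoid and fasting genes, 0 and 1 of 25 immediate early genes and 0 and 0 of 15 Na+/K+-ATPase subunits. Among markers they numbered 0 and 1 of 16 for oligodendrocytes, 0 and 1 of 9 for blood, 0 and 1 of 23 for vessels and meninges, 0 and 1 of 16 for retina, lens and pineal, and 0 and 0 of 10 for pituitary. Shares above WT were 3.45% for checkpoint and for glucocorticoid genes. Shares below WT were 3.45% for glucocorticoid genes, 4% for immediate early genes and 4.35% for vessels. They were 6.25% for oligodendrocytes and for retina, and 11.1% for blood, each from 1 gene. No member of these 9 lists passed in edgeR. An unadjusted p under 0.05 was found there for 4, 5, 3 and 1 members of the gene lists and for 2, 2, 3, 6 and 0 of the marker lists, in the same order. Over all genes it was found for 2417 of 20902. DESeq2 called 1 blood marker, *tfr1a* (adjusted p = 0.0214), and 1 vessel marker, *dcn* (adjusted p = 0.0203), both lower, and limma-voom called *tfr1a* (adjusted p = 0.0411).

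**Figure D5:**
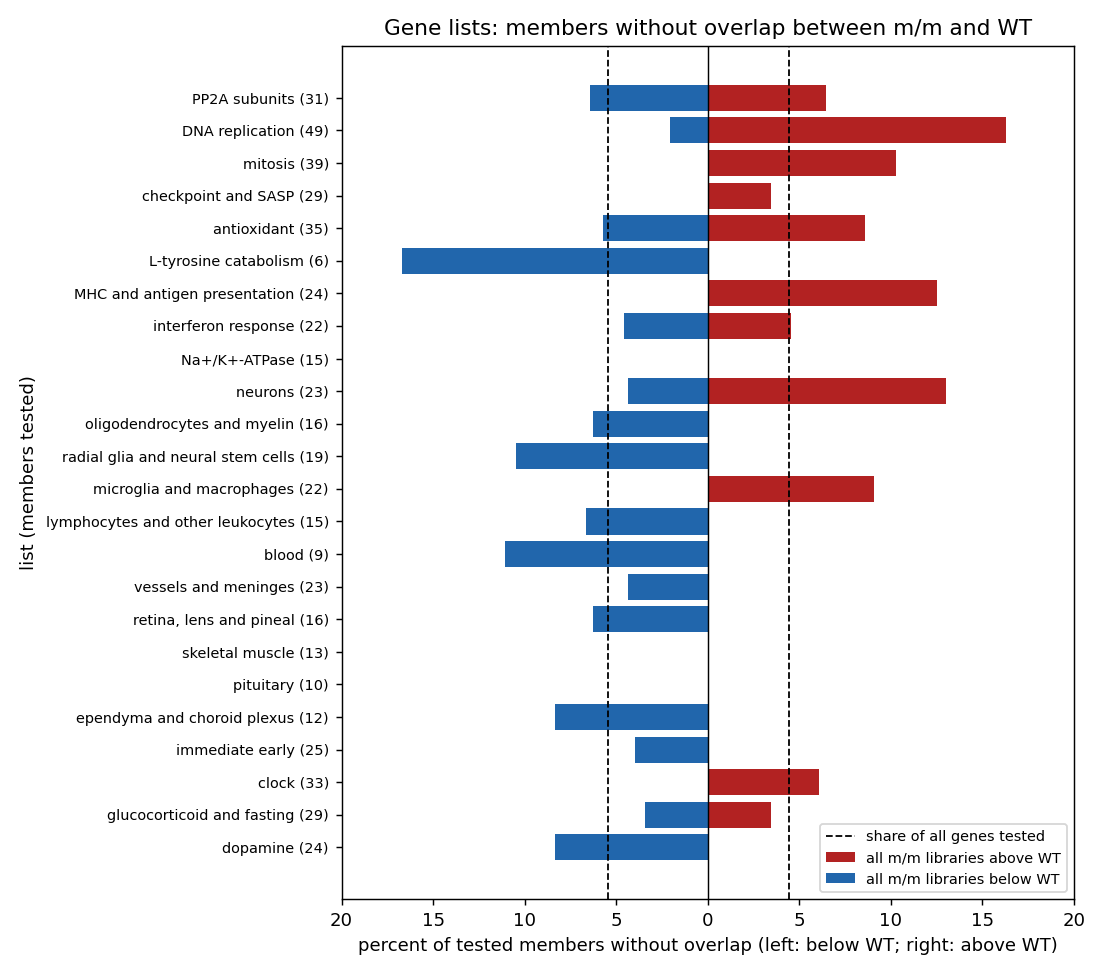
Percent of the tested members of 24 gene and marker lists that lay above WT (right, red) or below WT (left, blue) in all 8 *ppp2r2c* m/m libraries. Dashed lines mark the same share of all genes tested, 4.41% above and 5.47% below. DNA replication has 16.3% above, and L-tyrosine catabolism 16.7% below from 1 gene of 6.

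RefSeq's GRCz12tu annotation gave a chromosome, matched by symbol, for 38 of the 63 genes and for 14601 of the genes tested. Chromosome 12 held 6 of the 38, among 495 tested there (1.21%), and chromosome 25 held 5 among 439 (1.14%). Chromosomes 1 and 14 held 4 each, among 667 (0.6%) and 569 (0.703%). These shares compare with 38 of 14601 over all placed genes. *ppp2r2c* lies on chromosome 1. Within 50 genes to either side, and with *ppp2r2c* itself included, 39 genes were tested. Of these, 6 (15.4%) showed no overlap, against 9.88% of all genes tested, and none of the 38 placed genes lay there. The other 25 of the 63 had no position. Among the 38 placed genes, and apart from the *mhc2dga* and *mhc2dgb* pair, the closest neighbours were *meiob* and *tex2l*, 3 genes apart on chromosome 12 and opposite in direction, and *dnaja1* and wu:fc21g02, 7 genes apart on chromosome 1 and likewise opposite.

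The number of genes that passed depended on single libraries. It was 49 without WT replicate 1 and 47 without WT replicate 2, of which 16 and 19 were among the 63. Of the 63 genes, 10 passed in both of these fits. It was 26 and 22 without replicate 1 or 2 of *ppp2r2c* m/m without drug, and 115 without MPH replicate 3. Of the 54 genes with more than 3 counts in both WT libraries, 8 had WT values over 2-fold apart. Leaving out 1 WT library moved the fold change of 12 of the 63 by more than 1.5 times. Beside *slc16a6a*, *tnfrsf14* and *caspb*, without WT replicate 1 the log2 change was −9.31 for si:ch73-364h19.2, −8.37 for *mhc2dgb*, −6.75 for *mhc2dga*, −7.23 for ENSDARG00000102326, −2.03 for si:ch211-39f2.3, 3.93 for ENSDARG00000102500, 10.51 for ENSDARG00000074085 and 4.78 for FO904898.3. Without WT replicate 2 it was −10.25 for *mhc2dgb*, −8.97 for *mhc2dga*, −6.11 for CT573264.3, 5.63 for ENSDARG00000102500, 4.32 for ENSDARG00000074085 and 7.90 for FO904898.3. The values of 10.51 and 7.90 are fitted against a remaining WT library with 0 counts and are no bounds. The 9 genes that passed in every alternative that gave them a value were CR339041.1, CR589944.1, ENSDARG00000102326, *ndst1a*, ENSDARG00000074085, si:ch73-233f7.3, si:ch73-364h19.2, si:dkey-22i16.9 and *tex2l*.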

How the data were processed

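Brain RNA was sequenced in 10 libraries of 4 groups. Per the study's methods, the authors trimmed paired reads to 100 bases, aligned them to zv10 with STAR 2.6.1d and deposited the counts per gene that STAR wrote. Which strand setting the counts follow is not given in the sources used here. Of 32266 genes, 20902 passed edgeR's filterByExpr (minimum count 10, minimum total 15). The main test was edgeR 4.0.16's quasi-likelihood test (glmQLFit) with TMM factors and 1 term per group in R 4.3.3, with Benjamini-Hochberg adjustment over all genes tested and a threshold of 0.05. Gaps were measured on log2 CPM with a prior count of 2. DESeq2 1.42.0, limma 3.58.1 (voom with quality weights), other scalings, other filters, a fit in 2 groups, a replicate block and leaving out each library were alternatives. On simulated counts, 131 of 200 genes changed 4-fold between *ppp2r2c* m/m and WT were recovered with 10 false calls among 20457 genes. The simulation gave all *ppp2r2c* m/m libraries the same mean level per gene, without drug differences. Its rates therefore need not hold for the genes called here.

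Named genes followed a rule. Among genes past the threshold without overlap, it took in each direction the 10 with the widest gap and a mean of at least 1 CPM in the higher genotype, and the 8 with the lowest p, a mean of at least 10 CPM and a symbol that is no clone name. It added list members past the threshold, *ppp2r2c* and *ppp2r2cb*, and, of the genes so named, the 5 with the lowest p among the *ppp2r2c* m/m groups. The other called genes are given to complete the account, and list members that did not pass were chosen after their values were seen. The members, the 24 lists and the tests were chosen with earlier results of these data known. Deviations from the group means had correlations of −0.188 to 0.136 (median 0.045) over 13 pairs of same-numbered libraries. Over 24 pairs with different numbers they were −0.299 to 0.237 (median −0.035). The pairs share libraries and are not independent, so these values cannot decide whether same-numbered libraries had a batch in common. Symbols were matched for 26433 of 32266 gene IDs from RefSeq and name tables.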

Additional observations from a re-analysis of the deposited data

Results flagged for a closer look

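In 5 of the 63 genes checked, 1 of the 8 *ppp2r2c* m/m libraries lay above the other 7 by a test with a critical value of 0.526. For continuous values chance passes it in about 1 of 20 groups, but the values flagged here rest on 1 to 5 counts. Where the other 7 libraries had 0 counts, a single count is enough to pass. The flags therefore cannot be told apart from counting error. *RRM2* (ENSDARG00000078069) had 0.227 CPM (5 counts) in replicate 2 of *ppp2r2c* m/m without drug. *mhc2dga* had 0.148 CPM and *slc16a6a* 0.148 CPM in Val replicate 2, each from 3 counts. *mhc2dgb* had 0.0461 CPM in Val replicate 3 and si:dkey-27p18.3 had 0.0439 CPM in replicate 1 without drug, each from 1 count. All of these lay below both WT libraries.

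In 4 of the 63 genes the change differed among the *ppp2r2c* m/m groups by edgeR's quasi-likelihood F test. The adjusted p was 0.00373 for *nr1d1*, 0.00795 for *nr1d2a*, 0.00795 for *dnaja* and 0.0391 for *dnaja1*.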

How the results depend on the processing

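The direction of 62 of the 63 genes held in every alternative run. The exception was *tnfrsf14*, with a log2 change of −4.61 without WT replicate 1 and 0.12 without WT replicate 2. For all mutant versus WT, the count of genes past the threshold was 407 with DESeq2, 155 with limma-voom, 183 with no filter, 24 with at least 10 counts in every library, and 777 and 2417 at an unadjusted p under 0.01 and 0.05. It ranged from 22 (without replicate 2 of *ppp2r2c* m/m without drug) to 115 (without MPH replicate 3) with 1 library left out. For the difference among mutant groups, the count was 788 with DESeq2, 575 with limma-voom, 264 with no filter, 78 with at least 10 counts in every library, and 871 and 2612 at those unadjusted p. It ranged from 0 (without either *ppp2r2c* m/m library without drug) to 343 (without MPH replicate 3). Genes without overlap numbered 106 at a gap of at least 1, and 2182 (without Val replicate 1) to 5914 (without WT replicate 2) with 1 library left out, where the rule is met by fewer values. With the replicate block the counts were 77 for all mutant versus WT and 217 for the difference among mutant groups, though no label says that the numbers pair libraries. The fit in 2 groups gave 44 genes for all mutant versus WT, 41 of them among the 63. The cause of these shifts was not tested.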
